A study of Mus musculus with 2 samples.

Results

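Whether the tumor nuclei of a mouse CIC::DUX4 sarcoma carried RNA of a skeletal muscle identity was examined through 10 genes: the paired-box factors Pax3 and Pax7, the myogenic regulatory factors Myf5, Myf6, Myod1 and Myog, the muscle fusion gene Mymk, the MADS-box factor Mef2c, and the basic helix-loop-helix genes Msc and Tcf21. They were chosen by symbol, with earlier results of these data known, and all 10 were among the 19059 features of the count tables. Single-nucleus RNA-seq had been deposited for 8 tumors, 4 from untreated mice and 4 from mice given Minnelide at 0.42 mg/kg with a label of 21 days. Minnelide is a soluble prodrug of triptolide, which blocks transcription by RNA polymerase II. The untreated mice are labelled dFLEx CDS +/-, while the label of the Minnelide mice names no genotype. In the dFLEx CDS mouse a CIC::DUX4 fusion is switched on only after both Cre and FLP recombinase have acted. Per the study's methods, plasmids encoding Cre (pCAG-Cre) and FLP (pCAG-FLPE) were electroporated into the gastrocnemius muscle of mice of both sexes aged 6 to 12 weeks, and Minnelide was given daily once a tumor could be felt. The CAG promoter of the plasmids works in many cell types, so the cell that received them is not fixed by the model. The tumors of both groups therefore grew inside skeletal muscle.

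Pax3 and Pax7 mark muscle progenitors of the embryo and satellite cells of the adult, and they act upstream of the myogenic regulatory factors. Myf5 and Myod1 commit a cell to the muscle lineage, Myog drives its differentiation, and Myf6 is the member that stays on in mature fibers. These 4 factors bind E-boxes (CANNTG) in muscle genes together with ubiquitous E proteins such as the products of Tcf3, Tcf4 and Tcf12, and MEF2 factors act beside them. Msc (musculin, or MyoR) and Tcf21 (capsulin) are related helix-loop-helix factors that can repress E-box genes and are needed in the embryo for the muscles of the jaw.

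The counts were unique molecular identifiers (UMIs), and levels are given as CPM, the UMIs of a gene per 1000000 UMIs of a class of nuclei in 1 tumor. The matrices held 18487409 to 73211599 UMIs and 72338 nuclei, of which 59915 were retained, the median depth being 883 UMIs per nucleus for untreated tumor 4 and 2329 to 4031 UMIs elsewhere. Tumor numbers only name the matrices within a group and pair nothing across groups. Nuclei were classed from markers that held none of the 10 genes, giving 32160 tumor-like, 6550 myocyte-like, 6852 fibroblast-like and 2864 endothelial-like nuclei, smaller macrophage-like, mural-like and osteoclast-like classes, and 9100 nuclei left unnamed. Of the unnamed nuclei, 2572 belonged to a cluster drawn mainly from untreated tumor 1 and 6528 to a shallow cluster drawn mainly from untreated tumor 4. The summed level of the tumor markers Etv1, Etv4, Etv5, Shc3 and Shc4 was 11506 to 16127 CPM in tumor-like nuclei, and in macrophage-like nuclei of the 7 tumors with enough of them it was still 3742 to 9828 CPM. UMIs of the tumor markers were thus counted in nuclei of other classes as well. Untreated tumor 1 stood apart, since its tumor-like nuclei held 2863 CPM of endothelial markers against 384 to 830 CPM in the other 7 tumors.

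Genes of the set lie on 6 chromosomes of the mouse genome (positions on GRCm39). Myf5 (chr10:107318769-107321995) and Myf6 (chr10:107328712-107330656) are neighbours on the minus strand with 6716 bases between them, Myod1 lies at chr7:46025870-46028526 and Myog at chr1:134217707-134220287, both on the plus strand. Pax3 lies at chr1:78077904-78173771, Pax7 at chr4:139464373-139560839, Mymk at chr2:26951627-26962228 and Msc at chr1:14823503-14826266, all on the minus strand, and Mef2c at chr13:83652064-83815555 on the plus strand. Mymk overlaps Adamtsl2 on the opposite strand, and Myog, Mef2c, Msc and Tcf21 overlap long noncoding RNAs on the opposite strand, so reads of the partners cannot be told apart where strand was not used in counting. The promoter of Myog is shown because it carries the motif through which the 4 factors act. In the RefSeq promoter table (GRCm38.p6), which matched 5 of the 10 genes, the 150 bases before the Myog start (chr1:134289854-134290003, plus strand) read, with E-boxes in capitals:
Myog: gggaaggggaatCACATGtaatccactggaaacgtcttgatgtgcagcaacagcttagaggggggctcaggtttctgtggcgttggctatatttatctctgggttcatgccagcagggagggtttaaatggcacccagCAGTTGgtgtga
The motif searched was CANNTG, which reads as CANNTG on both strands. The E-boxes CACATG and CAGTTG begin 138 and 12 bases before the start. Of all 32851 promoters of the table, 66.2% held at least 1 such motif in the 250 bases before the start and 31.8% held at least 2, so the letters alone are common. Among the other matched genes, the promoters of Pax7, Myf5 and Tcf21 held 0 and those of Mef2c held 0 to 2.

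The myogenic regulatory factors were found mainly in myocyte-like nuclei and were scarce in tumor-like nuclei. Myf6, the factor of mature fibers, had 69.2% of its 5444 retained UMIs in myocyte-like nuclei and 17.5% in tumor-like nuclei, although the latter class held far more nuclei. Myod1 had 57.8% of 1152 UMIs and Myog 52.2% of 1940 UMIs in myocyte-like nuclei. Myf5, the earliest of the 4, was close to absent, with 126 retained UMIs of which 71 lay in myocyte-like and 39 in tumor-like nuclei. Tumor-like levels of Myf5 did not exceed 1.15 CPM in any tumor. Because all of these levels were in view when the genes were chosen, the comparisons between classes are descriptions and carry no test.

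In tumor-like nuclei the 4 factors summed to 28.6, 7.12, 5.75 and 6.22 CPM in untreated tumors 1 to 4 and to 4.12, 58.1, 1.94 and 3.74 CPM in Minnelide tumors 1 to 4. In myocyte-like nuclei of the same tumors they summed to 301, 326, 120.1 and 87.4 CPM and to 131, 175, 131 and 306 CPM. In endothelial-like nuclei, a class that should lack them, they summed to 30.5, 22.3, 7.86 and 7.01 CPM and to 7.36, 63.8, 0.460 and 2.41 CPM. The tumor-like level was below the myocyte-like level in 8 of 8 tumors, by 3.02- to 81.8-fold, and below the endothelial-like level in 6 of 8. Against the other non-muscle classes it was mostly the higher. It was above the macrophage-like level in 5 of 7 tumors and the fibroblast-like level in 5 of 8. It was above the mural-like level in 4 of 6 and the osteoclast-like level in 6 of 8. The highest of the 5 non-muscle classes was above the tumor-like level in 6 of 8 tumors. The ranges of the tumor-like and myocyte-like classes did not overlap, whereas those of the tumor-like and endothelial-like classes covered nearly the same span. Minnelide tumor 2 and untreated tumor 1 had the highest tumor-like sums, and they were also the 2 tumors in which myocyte-like nuclei took the largest shares of retained nuclei, 50.7% and 14.0%. The part of muscle RNA outside muscle nuclei in these values was not tested.

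**Figure D1:**
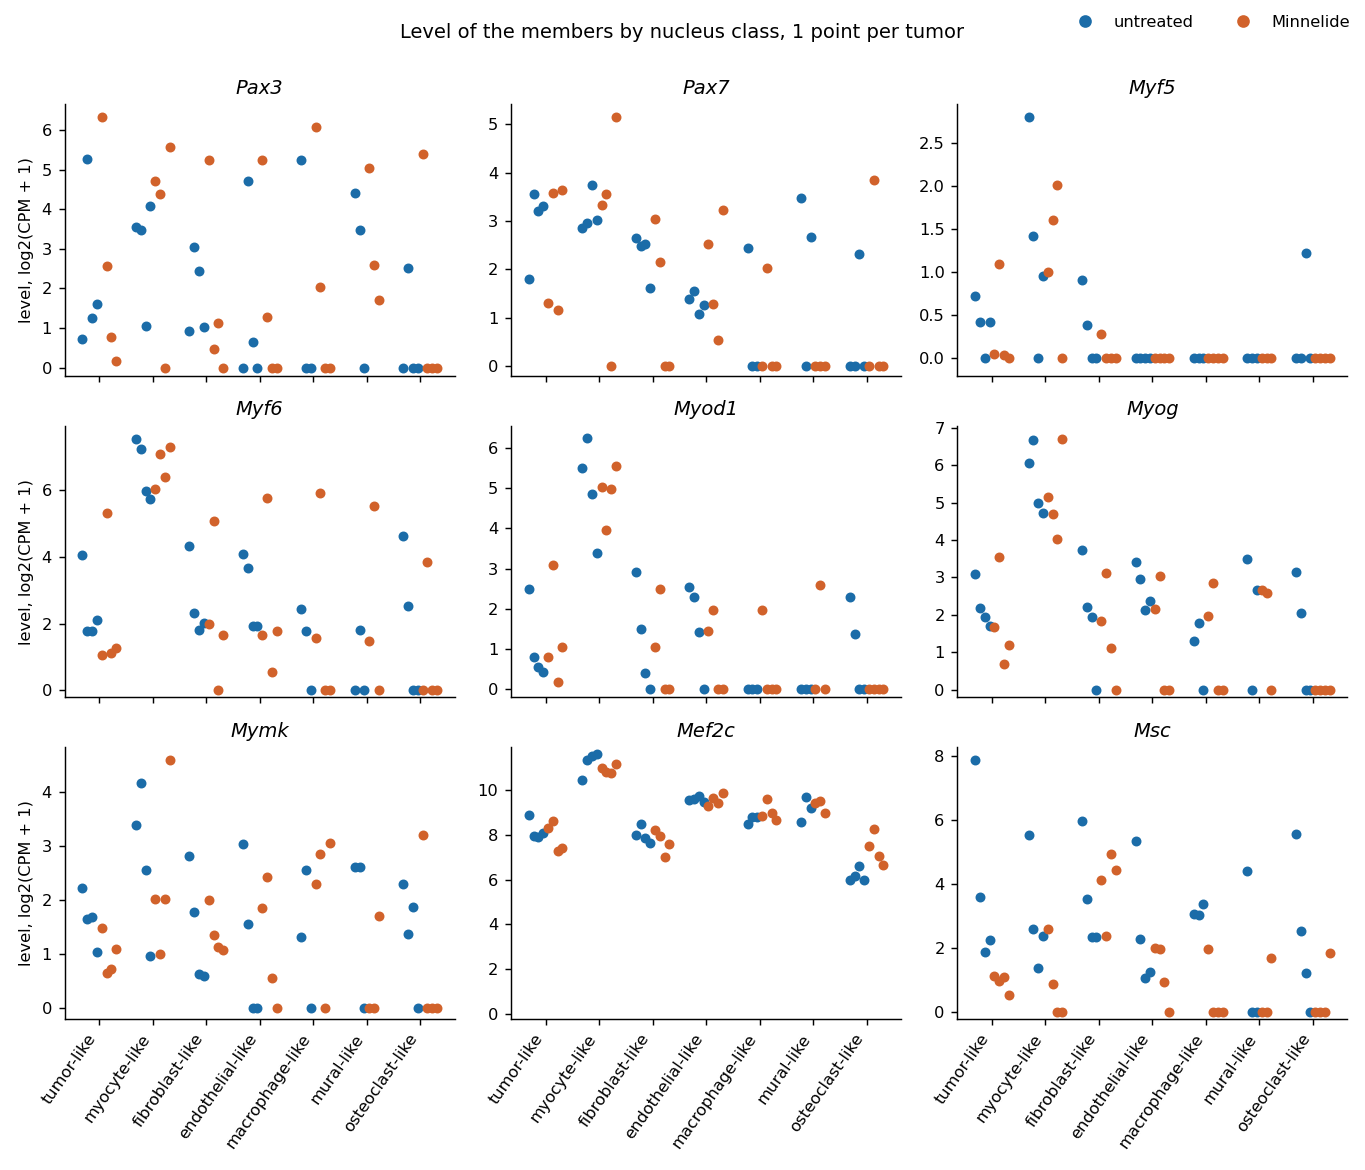
Level of each member except Tcf21 as log2(CPM + 1) in each named class of nuclei, with 1 point per tumor, blue for untreated and orange for Minnelide. The myogenic regulatory factors sit highest in myocyte-like nuclei, Mef2c is measured in every class, and Msc and Pax3 spread widely among tumors within the tumor-like class.

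Each of the 3 measurable factors followed the same order. Myf6 was measured at 15.7, 2.47, 2.41 and 3.28 CPM in tumor-like nuclei of the untreated tumors and at 1.10, 38.8, 1.17 and 1.40 CPM in those of the Minnelide tumors, against 51.5 to 185 CPM in myocyte-like nuclei. Myod1 was measured at 4.65, 0.753, 0.464 and 0.346 CPM in the untreated and at 0.754, 7.45, 0.123 and 1.07 CPM in the Minnelide tumors, against 9.45 to 74.3 CPM in myocyte-like nuclei. Myog was measured at 7.59, 3.56, 2.88 and 2.25 CPM in the untreated and at 2.22, 10.7, 0.614 and 1.27 CPM in the Minnelide tumors, against 15.3 to 104.0 CPM in myocyte-like nuclei. For all 3 genes untreated tumor 1 and Minnelide tumor 2 were the highest of the 8, and the treatment groups overlapped. For Myod1 and Myog the range over tumors in myocyte-like nuclei lay above that of every other class, with means of 34.9 ± 20.4 CPM for Myod1 and 50.2 ± 35.5 CPM for Myog (SD, n = 8). For Myf6 the myocyte-like mean was 110.2 ± 51.3 CPM, and its range overlapped that of endothelial-like nuclei, which reached 53.6 CPM in Minnelide tumor 2.

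The share of nuclei with a UMI gave the same picture once each nucleus was thinned to 1000 UMIs. Myog was found in 0.122% to 0.990% of tumor-like nuclei, in 0% to 1.28% of endothelial-like nuclei and in 1.69% to 6.12% of myocyte-like nuclei. Without thinning, the ranges were 0.271% to 6.07% for tumor-like nuclei, whose median depth was 1769 to 4997 UMIs, and 0% to 3.42% for endothelial-like nuclei, at 1685 to 4511 UMIs. After thinning, the tumor-like share was therefore within the range of the endothelial-like class, while without thinning it reached above that range. Nuclei with 2 or more UMIs of the same factor were few among tumor-like nuclei, 19 of 32160 for Myod1 and 29 for Myog, against 83 and 135 of 6550 myocyte-like nuclei. The highest count of Myog was 46 UMIs in 1 myocyte-like nucleus of untreated tumor 1, and 1 tumor-like nucleus of that tumor held 26.

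The amount of the factors in tumor-like nuclei was set beside that of contractile and metabolic muscle genes there. The 10 myocyte markers (Ttn, Neb, Ckm, Acta1, Myh1, Myh2, Myh4, Ryr1, Tnnt3, Mybpc2) summed to 6938, 1678, 2325 and 3124 CPM in tumor-like nuclei of the untreated tumors and to 922, 5752, 441 and 739 CPM in those of the Minnelide tumors. In myocyte-like nuclei they summed to 29335 to 72428 CPM. Untreated tumor 1 and Minnelide tumor 2 were highest for the markers in tumor-like nuclei, as they were for the factors. When each gene's tumor-like level was expressed as a percent of its myocyte-like level, Myog lay within the range of the 10 markers in 8 of 8 tumors, Myf6 in 7 of 8 and Myod1 in 6 of 8, and the exceptions of Myf6 and Myod1 lay below that range. Mef2c lay within it in 7 of 8 tumors. Pax7 lay above it in 6 of the 7 tumors with a myocyte-like value and Msc in 6 of 6.

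**Figure D2:**
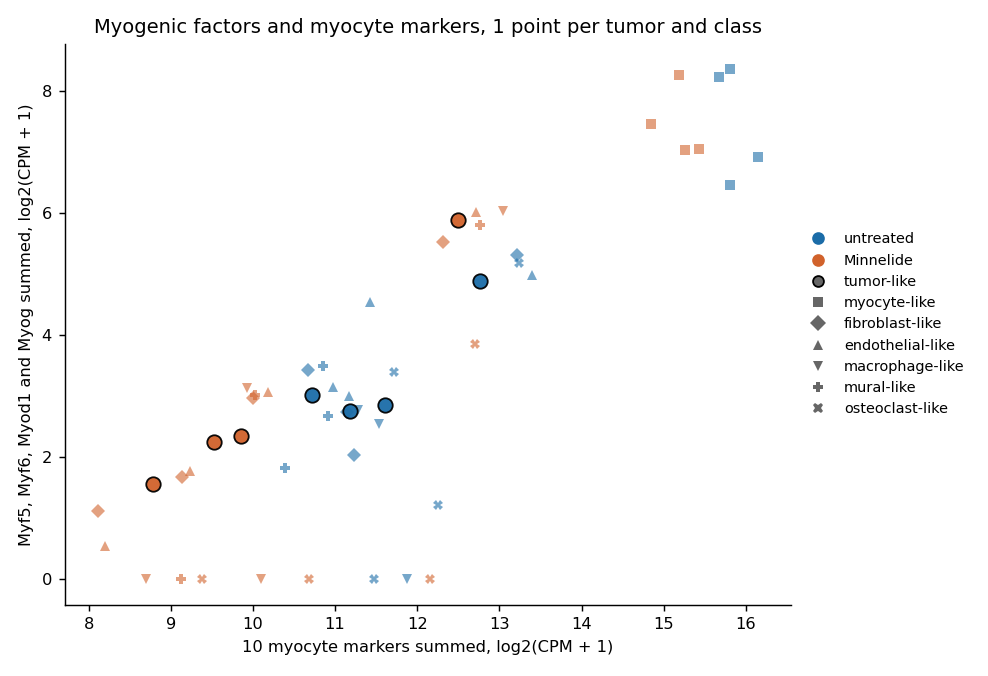
Summed level of Myf5, Myf6, Myod1 and Myog against that of the 10 myocyte markers, both as log2(CPM + 1), with 1 point per tumor and class (outlined circles, tumor-like; squares, myocyte-like; other symbols, the other 5 classes; blue, untreated; orange, Minnelide). Among tumor-like points those of untreated tumor 1 (28.6 CPM of factors) and Minnelide tumor 2 (58.1 CPM) are high on both axes, the other 6 lie between 1.94 and 7.12 CPM of factors among the non-muscle classes, and the myocyte-like points lie apart at the upper right.

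Of the 32160 tumor-like nuclei, 3490 had no UMI of any of the 10 myocyte markers, and 2158, 759 and 419 of these came from Minnelide tumors 3, 4 and 1 and none from untreated tumor 1 or Minnelide tumor 2. They held 35 UMIs of the 4 factors among 11871376 UMIs, which is 2.95 CPM with an exact 95% Poisson interval of 2.05 to 4.10 for counting error only. In Minnelide tumor 1 the sum was 6.21 CPM (interval 2.98 to 11.4), in Minnelide tumor 3 it was 2.17 CPM (1.26 to 3.47) and in Minnelide tumor 4 it was 3.34 CPM (1.34 to 6.89). The corresponding sums over all tumor-like nuclei of these 3 tumors, 4.12, 1.94 and 3.74 CPM, lay inside these intervals. In these 3 tumors the level of the factors in nuclei without marker UMIs was thus within counting error of the class as a whole. The comparison could not be made in the 2 tumors with the highest sums, and the other 3 untreated tumors had 41 to 63 such nuclei per tumor, with at most 1 UMI of the factors over all of them in a tumor.

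Mymk encodes myomaker, a membrane protein that muscle precursors need to fuse. It had only 635 retained UMIs, of which 50.9% lay in tumor-like nuclei, the largest class. By level, the tumor-like mean of 1.65 CPM was the lowest of the 7 named classes, though its range overlapped that of the next. The highest of the 5 non-muscle classes was above the tumor-like level in 7 of 8 tumors. Its tumor-like level was 3.65, 2.12, 2.23 and 1.04 CPM in the untreated tumors and 1.78, 0.573, 0.645 and 1.14 CPM in the Minnelide tumors, and its myocyte-like level ran from 0.945 to 23.1 CPM, the latter from 4 UMIs in the 54 myocyte-like nuclei of Minnelide tumor 4. These ranges overlapped. The level as a percent of the myocyte-like level lay within the span of the muscle markers in 4 of 8 tumors and above it in 4.

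Genes that lie downstream of the factors were low as well. In the list of 12 muscle differentiation targets, 9 were lower in tumor-like than in myocyte-like nuclei in every tumor (75.0%), as were 4 of the 10 genes of the set and 8.90% of all features, a count that includes features that were hardly measured. None of the 12 targets exceeded 10 CPM in tumor-like nuclei of all tumors, which 38.1% of all features did. Des, which encodes the intermediate filament desmin, was measured at 5.81 to 102.5 CPM in tumor-like nuclei, at 3.22 to 148 CPM in endothelial-like nuclei and at 231 to 814 CPM in myocyte-like nuclei. Chrna1, the alpha subunit of the muscle acetylcholine receptor, was measured at 1.38 to 24.1 CPM in tumor-like, 2.30 to 44.2 CPM in endothelial-like and 23.2 to 86.1 CPM in myocyte-like nuclei. Desmin RNA thus separated muscle nuclei from tumor nuclei with no overlap between tumors, and Chrna1 overlapped only through untreated tumor 1.

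Pax3 was high in tumor-like nuclei of 2 tumors and low in the other 6. Its tumor-like level was 0.652, 37.7, 1.39 and 2.07 CPM in untreated tumors 1 to 4 and 79.4, 4.97, 0.707 and 0.134 CPM in Minnelide tumors 1 to 4. The 2 high tumors, untreated tumor 2 and Minnelide tumor 1, belong to different treatment groups, and the groups overlapped. Tumor-like nuclei, the largest class, held 82.5% of the 5770 retained Pax3 UMIs. The mean level over tumors was 15.9 CPM in tumor-like nuclei and 16.2 CPM in myocyte-like nuclei, where it ran from 0 to 46.2 CPM. The tumor-like level was above the myocyte-like level in 4 of 8 tumors and below it in 4. In Minnelide tumor 1 Pax3 reached 80.7 CPM in one tumor-like cluster and 78.7 CPM in another, so it was spread over the tumor-like nuclei of that tumor and not limited to one cluster.

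After thinning to 1000 UMIs, 6.53% of tumor-like nuclei of Minnelide tumor 1 held a Pax3 UMI (exact 95% interval 5.96 to 7.13) and 2.83% of those of untreated tumor 2 (2.28 to 3.48), against at most 0.431% in the other tumors. The background classes of the same tumors were not empty, at 1.70% of endothelial-like and 3.82% of macrophage-like nuclei in Minnelide tumor 1 and at 1.96% and 2.23% in untreated tumor 2. In Minnelide tumor 1 the Pax3 level of these 2 classes together was 57.8% of the tumor-like level, within the 57.4% to 62.1% found for the 5 tumor markers. In untreated tumor 2 it was 78.9%, above the 39.8% to 43.1% of the markers. In Minnelide tumor 1 the pooled Pax3 level of these 2 classes thus stood in the same ratio as RNA of the tumor markers. The 2 classes differed there, at 36.8 CPM of Pax3 in endothelial-like and 66.35 CPM in macrophage-like nuclei. In untreated tumor 2 Pax3 was relatively more abundant than the markers in the same pool. This did not extend to every class, since fibroblast-like nuclei of untreated tumor 2 held 7.33 CPM of Pax3 against 37.7 CPM in tumor-like nuclei. Of the 948 tumor-like nuclei with 2 or more Pax3 UMIs, 834 came from Minnelide tumor 1 and 101 from untreated tumor 2.

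Pax7, the factor of satellite cells, did not exceed 11.6 CPM in tumor-like nuclei of any tumor. Its tumor-like level was 2.46, 10.8, 8.26 and 8.98 CPM in the untreated and 1.47, 10.9, 1.23 and 11.6 CPM in the Minnelide tumors. Levels thus lay between 8.26 and 11.6 CPM in 5 tumors and between 1.23 and 2.46 CPM in 3, with both kinds in each treatment group. In myocyte-like nuclei Pax7 was found at 6.24 to 34.7 CPM in 7 tumors and at 0 UMIs in Minnelide tumor 3, which had 66 such nuclei. The highest of these values came from the 54 myocyte-like nuclei of Minnelide tumor 4. The tumor-like level was above the myocyte-like level in 4 of 8 tumors and below it in 4. It was above the endothelial-like level in 7 of 8 tumors and the macrophage-like level in 7 of 7. It was above the highest of the 5 non-muscle classes in 5 of 8 tumors. Tumor-like nuclei held 59.0% and myocyte-like nuclei 23.5% of 1240 retained UMIs.

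Only 0.0995% to 1.11% of tumor-like nuclei held a Pax7 UMI after thinning. Pax7 was counted with 2 or more UMIs in 112 tumor-like, 47 myocyte-like and 20 fibroblast-like nuclei. In those 47 myocyte-like nuclei the satellite cell markers Megf10, Chodl, Cdh15, Heyl and Fgfr4 summed to 88.7 CPM, against 46.6 CPM in the rest of the class. In the 112 tumor-like nuclei they summed to 75.6 CPM against 38.1 CPM, and in the 20 fibroblast-like nuclei to 315 CPM against 73.5 CPM. Nuclei with repeated Pax7 counts therefore had a higher summed level of satellite markers in each of these 3 classes, and the gap was widest among fibroblast-like nuclei. These nuclei were picked by their Pax7 counts, so the values carry no test.

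**Figure D3:**
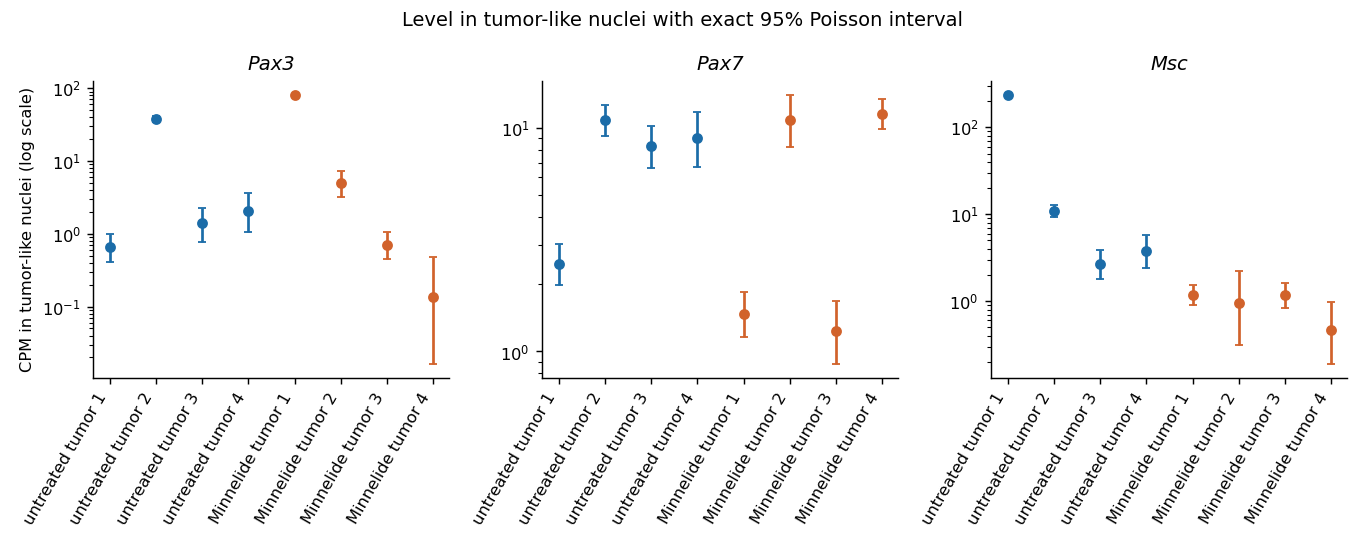
CPM of Pax3, Pax7 and Msc in tumor-like nuclei of each of the 8 tumors, on log axes, blue for untreated and orange for Minnelide, with exact 95% Poisson intervals for counting error. Pax3 is high in untreated tumor 2 (37.7) and Minnelide tumor 1 (79.4), Pax7 stays between 1.23 and 11.6, and Msc is highest in untreated tumor 1 (234).

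Mef2c was the most abundant of the 10 genes and was measured in every class. Its tumor-like level was 470.1, 245, 235 and 267 CPM in the untreated and 315, 389, 151 and 167 CPM in the Minnelide tumors. The treatment groups overlapped, and untreated tumor 1 was the highest. Over tumors the mean was 2204 ± 609 CPM in myocyte-like, 758 ± 96.2 CPM in endothelial-like, 280 ± 108 CPM in tumor-like and 235 CPM in fibroblast-like nuclei (SD, n = 8), with mural-like and macrophage-like nuclei between the endothelial-like and tumor-like classes and osteoclast-like nuclei lowest. Only the myocyte-like range, 1374 to 3102 CPM, stood clear of its neighbour in that order, and each of the other neighbours overlapped. Mef2c also works in endothelial and myeloid cells, and after thinning it was found in 13.6% to 36.6% of tumor-like, 43.3% to 52.0% of endothelial-like and 56.1% to 84.3% of myocyte-like nuclei. The tumor-like nuclei therefore carried less Mef2c RNA than the endothelial-like nuclei of the same tumor. The level in endothelial-like and macrophage-like nuclei together was 158% to 505% of the tumor-like level.

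Msc was the one gene of the set that was abundant in a single tumor. Its tumor-like level was 234, 11.0, 2.69 and 3.80 CPM in untreated tumors 1 to 4 and 1.18, 0.955, 1.17 and 0.468 CPM in Minnelide tumors 1 to 4. Every untreated tumor was above every Minnelide tumor, and untreated tumor 1 stood far above the next highest, untreated tumor 2. Tumor-like nuclei held 84.2% of the 10207 retained Msc UMIs, nearly all of them from that tumor. Of the 1442 tumor-like nuclei with 2 or more Msc UMIs, 1416 came from untreated tumor 1.

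An Msc UMI was counted in 62.7% of the tumor-like nuclei of untreated tumor 1 as deposited and in 20.8% after thinning to 1000 UMIs (exact 95% interval 19.5 to 22.2), against 0.0542% to 1.19% after thinning in the other 7 tumors. The thinned share was 4.98% in endothelial-like nuclei of untreated tumor 1. Its main tumor-like cluster held 238 CPM of Msc, a small tumor-like cluster of 88 nuclei held 26.5 CPM, and the unnamed cluster drawn mainly from that tumor held 174 CPM. Msc was thus abundant in the main body of tumor-like nuclei of this tumor. The level in its endothelial-like nuclei pooled with its 3 macrophage-like nuclei was 17.1% of the tumor-like level. This was above the 10.9% to 14.1% found for the 5 tumor markers in the same pool.

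Fibroblast-like nuclei also carried Msc UMIs in every tumor. Their level was 62.3, 10.7, 4.07 and 4.11 CPM in the untreated and 16.4, 4.25, 30.1 and 20.8 CPM in the Minnelide tumors, and it was above the tumor-like level in 6 of 8 tumors. Myocyte-like nuclei of untreated tumor 1 held 45.2 CPM of Msc, and those of the other tumors 0 to 5.07 CPM. Tcf21, the closest relative of Msc, had no UMI in any of the 301595285 UMIs of the 8 matrices, which allows a level of up to 0.00995 CPM for counting error only. Tcf21 was 1 of 1432 features with no UMI in any matrix, and whether reads of this gene could have been assigned in this counting was not tested.

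The comparison of Minnelide with untreated tumors asked whether treatment moved these genes. edgeR's quasi-likelihood test on UMIs summed per tumor, with Benjamini-Hochberg adjustment over all genes tested, called 0 of the 8 members that passed the count filter in tumor-like nuclei (all but Myf5 and Tcf21), beside 0 of 13057 genes (0%), of which 1012 had an unadjusted p under 0.05. DESeq2 called 54 of the 13057 genes (0.414%) and none of the 5 members it gave an adjusted p, which it withheld for Pax3, Myf6 and Msc. Over all retained nuclei, where fewer nuclei of a class and less RNA per nucleus cannot be told apart, edgeR called 0 of 8 members beside 0 of 13816 genes (0%), 1373 of which passed 0.05 before adjustment. DESeq2 called none of the 6 members it gave an adjusted p beside 1.23% of genes. In fibroblast-like nuclei 3 members were tested and in myocyte-like nuclei 6, and edgeR called none in either class, nor DESeq2 any of the 3 and 2 members it gave an adjusted p, beside 0% of genes in edgeR and 0.132% and 0.105% in DESeq2. In these 2 classes 459 and 962 genes had an unadjusted p under 0.05 in edgeR. Tumors of the same group shared no barcode, whereas each untreated tumor shared 49 to 132 barcodes with the Minnelide tumor of the same number. The labels name no batch, and a batch that followed the groups could not be told apart from treatment.

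Msc had the lowest log2 change of the set in tumor-like nuclei, -5.74 (SE 1.54), with an edgeR adjusted p = 0.621, or 0.00532 before adjustment. Of the 8 members tested, only Msc had groups that did not overlap, with all untreated above all Minnelide tumors, as in 4.07% of the genes tested. No member showed the reverse order, found in 1.13% of genes. Without untreated tumor 1 the log2 change was -2.55 (SE 0.55, adjusted p = 0.656 in edgeR), so that tumor set most of the size. Over all retained nuclei the log2 change was -4.44 (SE 1.35, adjusted p = 0.464 in edgeR), and in fibroblast-like nuclei it was -0.11 (SE 0.89, adjusted p = 0.999 in edgeR).

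None of the other members passed the test, and their groups overlapped. In tumor-like nuclei the log2 change of Pax3 was 1.09 (SE 1.81, adjusted p = 0.875 in edgeR) and that of Pax7 was -0.24 (SE 0.84, adjusted p = 0.947 in edgeR). For Myf6 it was 0.94 (SE 1.29), for Myod1 0.57 (SE 1.20), for Myog -0.09 (SE 0.83) and for Mef2c -0.13 (SE 0.33). Mymk had a log2 change of -0.97 (SE 0.46, adjusted p = 0.621 in edgeR). With standard errors of this size, changes of several fold in the paired-box and myogenic regulatory factors could not have been told from no change.

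In myocyte-like nuclei, where the factors were better measured, the log2 change was -0.48 (SE 0.54) for Myod1, -0.55 (SE 0.55) for Myog, -0.07 (SE 0.42) for Myf6 and -0.46 (SE 0.32) for Mef2c. The number of myocyte-like nuclei per tumor behind these values ran from 54 to 3456. None of these 4 changes reached 1.5 times its standard error.

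**Figure D4:**
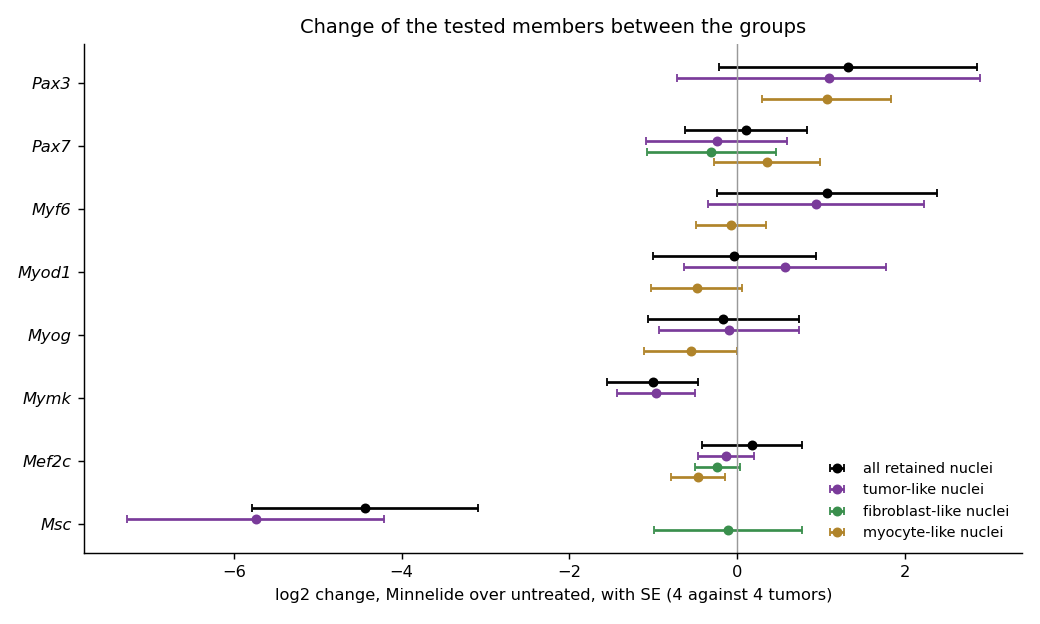
Log2 change of each tested member, Minnelide over untreated, with its standard error, in the 4 comparisons (all retained, tumor-like, fibroblast-like and myocyte-like nuclei), 4 tumors a group. Most bars reach across 0, those of Mymk lie below it, and Msc in tumor-like nuclei (-5.74) and in all retained nuclei (-4.44) lies farthest below it.

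Genes that work with or against the myogenic factors were described from lists. None of the genes in the 5 lists was called by edgeR in any of the 4 comparisons, and DESeq2 called 1, Myh8. Among 17 upstream and partner factors, 7 exceeded 10 CPM in tumor-like nuclei of every tumor (41.2%), close to the 38.1% of all features. Tcf4, which encodes an E protein, was the most abundant, at 3162 to 4615 CPM in tumor-like nuclei against 588 to 2439 CPM in myocyte-like nuclei and 3754 to 5813 CPM in endothelial-like nuclei. Eya1, a transcriptional coactivator of early muscle, was measured at 404, 757, 1298 and 834 CPM in tumor-like nuclei of the untreated and at 1519, 1814, 755 and 1841 CPM in those of the Minnelide tumors. It was higher in tumor-like than in myocyte-like nuclei (275 to 1039 CPM) and than in endothelial-like nuclei (67.5 to 827 CPM) of the same tumor in 8 of 8 tumors. The order against myocyte-like nuclei was shared by 4 of the 17 listed factors and by 14.4% of all features. Its edgeR log2 change with Minnelide was 0.90 (SE 0.44, adjusted p = 0.621).

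Six4, a homeodomain factor of early muscle with which Eya1 can act, was low in tumor-like nuclei. It was measured at 2.34 to 26.1 CPM there and at 15.3 to 63.5 CPM in myocyte-like nuclei, with untreated tumor 1 the highest of the tumor-like values. The level of Eya1 was thus far above that of Six4 in tumor-like nuclei, and the same order held elsewhere. Means of Eya1 and Six4 were 517 and 31.1 CPM in myocyte-like and 382 and 13.6 CPM in fibroblast-like nuclei. CPM is not corrected for gene length, so levels of different genes compare only roughly. With Minnelide, the log2 change in tumor-like nuclei was -1.24 for Six4 (SE 0.52, adjusted p = 0.621 in edgeR).

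Of 15 inhibitors of the myogenic helix-loop-helix factors, 5 exceeded 10 CPM in tumor-like nuclei of every tumor (33.3%), near the 38.1% of all features. Zeb1, a repressor that binds E-box-like sites, was measured at 326 to 518 CPM in tumor-like nuclei, which was lower than in endothelial-like nuclei (992 to 2247 CPM). Id3, which sequesters E proteins, was measured at 49.1 to 125 CPM in tumor-like nuclei and at 21.7 to 91.7 CPM in myocyte-like nuclei, and these ranges overlapped. Hes1, an effector of Notch signaling, was measured at 39.8, 13.0, 10.6 and 17.5 CPM in tumor-like nuclei of the untreated and at 8.39, 7.83, 8.48 and 9.76 CPM in those of the Minnelide tumors. For Hes1 all untreated tumors were above all Minnelide tumors, as in 4.07% of the genes tested. Its log2 change was -1.08 (SE 0.35, adjusted p = 0.621 in edgeR). In tumor-like nuclei the median log2 change was -0.26 over the 15 inhibitors and -0.06 over the 14 upstream factors tested, against -0.01 over all genes. It was -0.68 over the 9 muscle differentiation targets tested. These targets are not independent of each other. The summed myocyte markers of the same nuclei were also lower in most Minnelide tumors than in the untreated tumors, and the cause was not tested.

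Myh8, the perinatal myosin heavy chain, was the list gene with the smallest unadjusted p. Its tumor-like level was 15.3, 7.33, 7.51 and 2.94 CPM in the untreated and 1.93, 1.91, 0.768 and 1.34 CPM in the Minnelide tumors. All untreated tumors were thus above all Minnelide tumors, as in 4.07% of the genes tested. The log2 change was -2.36 (SE 0.49, adjusted p = 0.621 in edgeR), while DESeq2 called it with an adjusted p of 0.00478 in tumor-like nuclei and 0.0199 over all retained nuclei. In endothelial-like nuclei Myh8 was measured at 1.20 to 15.3 CPM, about the tumor-like span, and in myocyte-like nuclei at 3.05 to 237 CPM.

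Of the 12 helix-loop-helix relatives of Msc, Tcf15 was the one above 10 CPM in tumor-like nuclei of every tumor, and 2 had no UMI in that class. Tcf15 (paraxis), a factor of the somites from which trunk muscle forms, was measured at 70.3, 58.6, 55.9 and 36.5 CPM in tumor-like nuclei of the untreated and at 57.5, 39.0, 53.1 and 39.4 CPM in those of the Minnelide tumors. Its level was higher there than in myocyte-like nuclei (11.6 to 39.7 CPM) in 8 of 8 tumors, a pattern shared by 14.4% of all features. The treatment groups overlapped, with a log2 change of -0.12 (SE 0.20, adjusted p = 0.877 in edgeR). Tal1 and Lyl1, factors of blood and endothelium, were highest in tumor-like nuclei of untreated tumor 1, at 13.9 and 9.89 CPM, against at most 4.01 and 1.39 CPM in the other tumors. Tal1 was measured at 19.3 to 98.0 CPM in endothelial-like nuclei, and the high endothelial marker level of that tumor's tumor-like nuclei stands beside these values.

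The genes whose levels ran most like those of the members were sought over 50 sums of at least 50 nuclei of 1 class in 1 tumor, among 13419 genes, by Pearson's r of log2(CPM + 1). Sums of one tumor share a library and its depth, so r is only descriptive. Myf6 ran closest to Tnnt3 (r = 0.938), a fast-fiber troponin that is also one of the myocyte markers, Eef1a2 (0.930) and Actn3 (0.928). Myod1 ran closest to Klhl30 (0.915), Pfkm (0.912) and Myl1 (0.906), and Myog to Trim54 (0.921), Jsrp1 (0.892) and Hspb7 (0.891). Most of the nearest genes of these 3 factors are known from mature muscle fibers. Mef2c ran closest to Svil (0.863), Acyp2 (0.852) and Tbc1d1 (0.840), and Mymk to Actc1 (0.736), Vdac3 (0.709) and Myl4 (0.699).

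The paired-box factors and Msc had other neighbours. Pax3 ran closest to Col22a1 (0.620), En1 (0.589) and Hr (0.586), and Pax7 to Mb (0.609), Irx5 and Ddit4l (0.588), all lower values of r than for the regulatory factors. Msc ran closest to Lbp (0.824), which encodes the lipopolysaccharide binding protein, Sucnr1 (0.773) and Dpep1 (0.748). In the tumor-like class Lbp reached 357 CPM for untreated tumor 1 but 49.5 CPM or less elsewhere, so the likeness rests largely on that tumor.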

How the data were processed

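The deposited files were sparse matrices of raw UMI counts per feature and nucleus, 4 in each of 2 GEO samples. The authors made these counts with Cell Ranger, intronic reads included, on the mm39 genome. The matrix headers name version 9.0.1 and the submitters' processing notes 7.0.1. Each matrix was 1 tumor and the unit of replication. The members and gene lists were chosen with earlier results of these data known, and the naming rule for clusters was settled after cluster markers and class sizes had been seen, before any test between groups.

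Nuclei with under 200 genes and doublets were left out. Markers, members and list genes were left out of the 2000 variable genes before 30 principal components and Leiden clustering at resolution 1.0 (scanpy 1.11.5, leidenalg 0.10.2). A cluster was named from at least 3 raised markers. UMIs were summed per tumor and class of at least 20 nuclei and tested with edgeR 4.0.16 (quasi-likelihood, TMM, filterByExpr, R 4.3.3), checked on simulated data, with DESeq2 1.42.0 as an alternative. Named list genes were the 2 with the highest mean tumor-like CPM, the 1 with the smallest unadjusted p, and any called, and 1 gene that this rule names is not reported here. For each member with at least 200 UMIs the 3 most similar genes were named. Intervals and floors (3 UMIs) cover counting error only. P-values measure the spread between these matrices, since the labels do not say that each came from a separate mouse. Alternatives were another normalization, no count filter, another resolution, other doublet handling and leaving out each tumor. The file names hold words on response that the labels do not give, and these were not used.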

Additional observations from a re-analysis of the deposited data

Results flagged for a closer look

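Within groups of 4 tumors, the gap of 1 tumor from the others relative to the group's range exceeded Dixon's 95% critical value in 22 values. Over the 60 groups tested, chance alone gives about 1 flagged group in 20, and values of related genes in 1 tumor are not independent. Minnelide tumor 2 and untreated tumor 1 held most of the muscle values. In tumor-like nuclei of Minnelide tumor 2, Myf6 was 38.8 CPM (1.10 to 1.40 in the other 3 of its group), Myod1 was 7.45 CPM (0.123 to 1.07), Myog was 10.7 CPM (0.614 to 2.22), Myf5 was 1.15 CPM (0 to 0.0387) and the sum of these 4 was 58.1 CPM (1.94 to 4.12). In its fibroblast-like nuclei Myf6 was 32.8 CPM (0 to 2.99) and the sum was 45.2 CPM (1.18 to 6.83). In tumor-like nuclei of untreated tumor 1, Myf6 was 15.7 CPM (2.41 to 3.28), Myod1 was 4.65 CPM (0.346 to 0.753), the sum was 28.6 CPM (5.75 to 7.12) and Mef2c was 470.1 CPM (235 to 267). In its fibroblast-like nuclei Myf6 was 19.1 CPM (2.53 to 3.97). Myocyte-like nuclei made up 50.7% and 14.0% of these 2 tumors, and the part of that in the values was not tested.

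Msc in untreated tumor 1 stood apart in 3 classes, at 234 CPM in tumor-like (2.69 to 11.0 in the other 3), 62.3 CPM in fibroblast-like (4.07 to 10.7) and 45.2 CPM in myocyte-like nuclei (1.62 to 5.06). In myocyte-like nuclei of Minnelide tumor 1 Msc was 5.07 CPM (0 to 0.830). Pax3 stood apart in tumor-like nuclei of untreated tumor 2 at 37.7 CPM (0.652 to 2.07), in those of Minnelide tumor 1 at 79.4 CPM (0.134 to 4.97) and in fibroblast-like nuclei of Minnelide tumor 1 at 37.1 CPM (0 to 1.18).

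Pax7 in myocyte-like nuclei of untreated tumor 3 was 12.4 CPM (6.24 to 7.09). Mymk in myocyte-like nuclei of Minnelide tumor 4 was 23.1 CPM from 4 UMIs (0.996 to 3.05). Myf5 in fibroblast-like nuclei of Minnelide tumor 1 was 0.213 CPM from a single UMI, with 0 UMIs in the other 3.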

How the results depend on the processing

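Where edgeR called 0 genes, DESeq2 called 170 over all retained nuclei, 54 in tumor-like, 15 in fibroblast-like and 11 in myocyte-like nuclei, and the cause was not tested. Without Minnelide tumor 2, edgeR called 1 gene over all retained nuclei (range 0 to 1 on leaving out each tumor). No member was called by edgeR under any alternative in which it was tested. Library size alone in place of TMM moved the median log2 change of all genes to -0.15 over all retained and -0.11 in tumor-like nuclei. Changes near 0 turned sign: over all retained nuclei Pax7 was -0.02 with library size alone, Myod1 was 0.02 with DESeq2 and 0.05 without the unnamed nuclei (an alternative chosen after seeing the data), and Myog in tumor-like nuclei was 0.06 at Leiden resolution 0.5. Leaving out each tumor gave log2 changes over all retained nuclei of -0.72 to 3.27 for Pax3, -0.32 to 0.46 for Pax7, -2.31 to 1.85 for Myf6, -1.72 to 0.68 for Myod1, -1.82 to 0.23 for Myog and -0.80 to 0.45 for Mef2c. In tumor-like nuclei the ranges were -2.54 to 4.13 for Pax3, -0.78 to 0.12 for Pax7, -2.10 to 1.90 for Myf6, -1.16 to 1.92 for Myod1, -1.43 to 0.29 for Myog and -0.40 to 0.06 for Mef2c. In fibroblast-like nuclei they were -1.41 to 0.02 for Pax7 and -0.51 to 1.5 for Msc, and in myocyte-like nuclei -0.02 to 0.68 for Pax7 and -0.29 to 0.28 for Myf6. Msc stayed negative in tumor-like nuclei (-6.13 to -2.55) and over all retained nuclei (-4.88 to -1.48), as did Mymk (-1.37 to -0.71 and -1.29 to -0.41). The mean tumor-like level of Msc was 31.9 CPM over 8 tumors and 3.04 CPM without untreated tumor 1, that of Pax3 was 15.9 CPM and 6.81 CPM without Minnelide tumor 1, and that of Myf6 was 8.29 CPM and 3.93 CPM without Minnelide tumor 2. No paired analysis was possible because the labels pair no tumors and their numbers follow the order of the files.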

Other observations

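Of 13 mesenchymal transcription factors listed, 10 exceeded 10 CPM in tumor-like nuclei of every tumor (76.9%, beside 38.1% of all features). This did not set tumor-like nuclei apart. In every tumor 4 of the 13 were higher and 3 were lower there than in myocyte-like nuclei. Mean Prrx1 and Runx1 were 54.4 and 334 CPM in tumor-like against 542 and 2418 CPM in fibroblast-like nuclei, while mean Meis1 was 337 against 161 CPM. Meis2, a homeodomain factor, was measured at 41.5, 1200.2, 591 and 26.8 CPM in tumor-like nuclei of the untreated and at 14.1, 1315, 123 and 3793 CPM in those of the Minnelide tumors. Its level thus ran over a wide span within each group, and the groups overlapped. Runx2, the bone lineage factor, was measured at 143 to 1689 CPM in tumor-like and 566 to 3567 CPM in fibroblast-like nuclei. In tumor-like nuclei the edgeR log2 change with Minnelide was 1.58 for Meis2 (SE 1.63, adjusted p = 0.792) and 1.23 for Runx2 (SE 0.72, adjusted p = 0.641), and the median over the 13 factors was 0.14 against -0.01 over all genes.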
